A study of Rattus norvegicus with 18 samples.

Results

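Astrocyte genes were examined in the prefrontal cortex (PFC) of 18 Sprague Dawley rat pups at postnatal day 14 (P14), in 3 groups of 6 pups. The set held 34 genes named by symbol, of which 32 were matched among the 32623 genes of the tables. Gpc5 and Prodh were not matched by symbol. All 32 matched genes passed the filter on low counts, which left 15703 genes for testing. Pups labelled SAL were saline controls. In the PNO group, the dams were gavaged with oxycodone (oxy), an opioid analgesic, at 15 mg/kg/day once the litter was born, so the pups had postnatal exposure only. IUO dams were brought from 10 to 15 mg/kg/day before mating and stayed on oxy from then on, so their pups were exposed in utero and, in addition, after birth. The labels do not name the dam or the sex of a pup, so pups of 1 group may be littermates and the p-values measure the spread between pups.

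Astrocytes are the glial cells that wrap synapses and blood vessels. They take glutamate and potassium back up from the synaptic space, turn glutamate into glutamine, carry water and ions at their endfeet on vessels, store glycogen, export lipids and secrete proteins that shape synapses. In the rat cortex most of them are produced and mature during the first postnatal weeks, the age studied here. Several of the genes are not exclusive to them: S100b is also made in the oligodendrocyte lineage, Apoe in microglia, and Vim in endothelial cells. Values are from bulk tissue, so fewer astrocytes and less RNA per astrocyte cannot be told apart.

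Summed expected counts, estimates in which a read that fits several genes is divided among them, came to between 18381819 and 26084780 per pup. Levels below are CPM, counts scaled to the size of the library, after TMM normalization, which compares a gene between pups, or the deposited TPM, which also correct for gene length. The 32 genes took between 0.726% and 0.996% of the counts of a SAL pup (median 0.928%), 0.829% to 1.04% in PNO (median 0.951%) and 0.766% to 0.869% in IUO (median 0.791%), so all groups overlapped and the IUO pups lay in the narrowest range. All of the defining genes Gfap, Aqp4, S100b, Aldh1l1, Slc1a2 and Slc1a3 had counts in each pup. SAL replicate 6 and PNO replicate 1 stood apart in Slc1a2 and Slc4a4, and the differences of these 2 genes are given with and without them.

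Reference promoters of 4 of the genes are shown for the genes on which the comparisons below turn. S100b, Ndrg2 and Apoe varied together across pups and were lower in IUO than PNO at the unadjusted p, whereas Slc1a2 varied with another set. Each window runs from 250 bases before to 50 bases after a transcription start, 5′ to 3′ on the strand of the gene, as RefSeq gives it for the rat build GRCr8. A window was matched by symbol for 31 of the 32 genes. Capitals mark TTGGCA, the half-site of the NFI transcription factors, or its reverse complement TGCCAA.
S100b, chr20:12381032-12381331, minus strand: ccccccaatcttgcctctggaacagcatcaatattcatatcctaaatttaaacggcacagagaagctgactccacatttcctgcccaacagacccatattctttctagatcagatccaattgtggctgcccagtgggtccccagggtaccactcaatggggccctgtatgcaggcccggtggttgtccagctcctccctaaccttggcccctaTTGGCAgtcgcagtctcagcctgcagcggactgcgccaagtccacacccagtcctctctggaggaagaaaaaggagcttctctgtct
Ndrg2, chr15:27083071-27083370, minus strand: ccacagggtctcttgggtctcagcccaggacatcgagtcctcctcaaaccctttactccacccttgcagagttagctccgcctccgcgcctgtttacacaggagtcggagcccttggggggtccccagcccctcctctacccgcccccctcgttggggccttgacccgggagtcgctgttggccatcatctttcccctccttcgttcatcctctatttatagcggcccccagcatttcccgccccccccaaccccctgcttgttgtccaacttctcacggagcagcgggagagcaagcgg
Apoe, chr1:88485767-88486066, minus strand: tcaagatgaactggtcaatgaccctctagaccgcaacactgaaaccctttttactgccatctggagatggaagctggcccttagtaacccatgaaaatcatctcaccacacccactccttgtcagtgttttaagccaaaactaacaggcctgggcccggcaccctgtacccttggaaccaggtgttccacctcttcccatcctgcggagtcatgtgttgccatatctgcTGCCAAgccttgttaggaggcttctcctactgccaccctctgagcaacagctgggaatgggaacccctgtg
Slc1a2, chr3:109459859-109460158, plus strand: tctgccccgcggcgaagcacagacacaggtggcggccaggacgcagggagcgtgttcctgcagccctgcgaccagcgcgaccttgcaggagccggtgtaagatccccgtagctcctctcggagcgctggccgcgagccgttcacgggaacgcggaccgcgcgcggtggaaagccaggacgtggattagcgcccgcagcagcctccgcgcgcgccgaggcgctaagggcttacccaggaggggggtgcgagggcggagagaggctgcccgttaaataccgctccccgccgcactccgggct

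The half-site TTGGCA was present, on either strand, in the first listed window of 6 of the 31 genes (Apoe, Slc1a3, Rfx4, Mlc1, S100b and Chrdl1), and in 13.6% of the first windows of 27457 genes. It began 37 bases before the start of S100b and 21 before the printed start of Apoe, in 1 of the 3 windows listed for that gene, and the printed windows of Ndrg2 and Slc1a2 held none. The full NFI palindrome, TTGGC and GCCAA around a spacer of 5 bases, which holds the half-site without its last letter on both strands, was in 0 of 31 and 0.0437% of all. The STAT element TTCNNNGAA was in 3 of 31 (Ppp1r3c, Ntsr2 and Acsbg1) and 8.68% of all, the SOX element ACAATG in 1 of 31 (Hopx) and 13.0%, and TATAAA in 4 of 31 (Atp1b2, Ndrg2, Vim and Slc39a12) and 14.3%. The letters are a description of these windows, and no binding was measured.

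Per length, the astrocyte genes spanned a wide range in SAL. The highest level was that of Apoe, the main lipid carrier of the brain, at 2460.0 ± 346 TPM (SD, n = 6). It was followed by Sparcl1 at 911 ± 188, Glul at 624 ± 149 and Aldoc at 540.1 ± 96.6, and the levels of Glul and Aldoc lay within 1 SD of each other. Ndrg2 (406 ± 69.8 TPM), Clu (393 ± 49.6) and S100b (390.2 ± 54.2) did not differ beyond their spread. Slc1a3 (262 ± 98.7) and Atp1b2 (249 ± 40.7) came next, then Aqp4 (191 ± 25.3) and Gfap (189 ± 33.8), each pair again within its spread. Mlc1, Gja1, Acsbg1, Vim and Slc1a2 had means between 95.1 and 136 TPM. The other 12 genes above the lowest 4 had means from 13.7 (Aldh1l1) to 49.7 TPM (Slc25a18). The TPM of Slc1a2, the major glutamate transporter of the adult forebrain, rests on a gene model of 882 bases in the tables, so its place in this order is uncertain. Reads outside that model entered neither its TPM nor its CPM, so the comparisons of Slc1a2 below rest on that model too. The lowest were Slc39a12 (5.75 ± 3.90 TPM), Chrdl1 (5.46 ± 2.70), Sox9 (4.81 ± 1.02) and Rfx4 (4.06 ± 1.28), which overlapped one another.

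**Figure D1:**
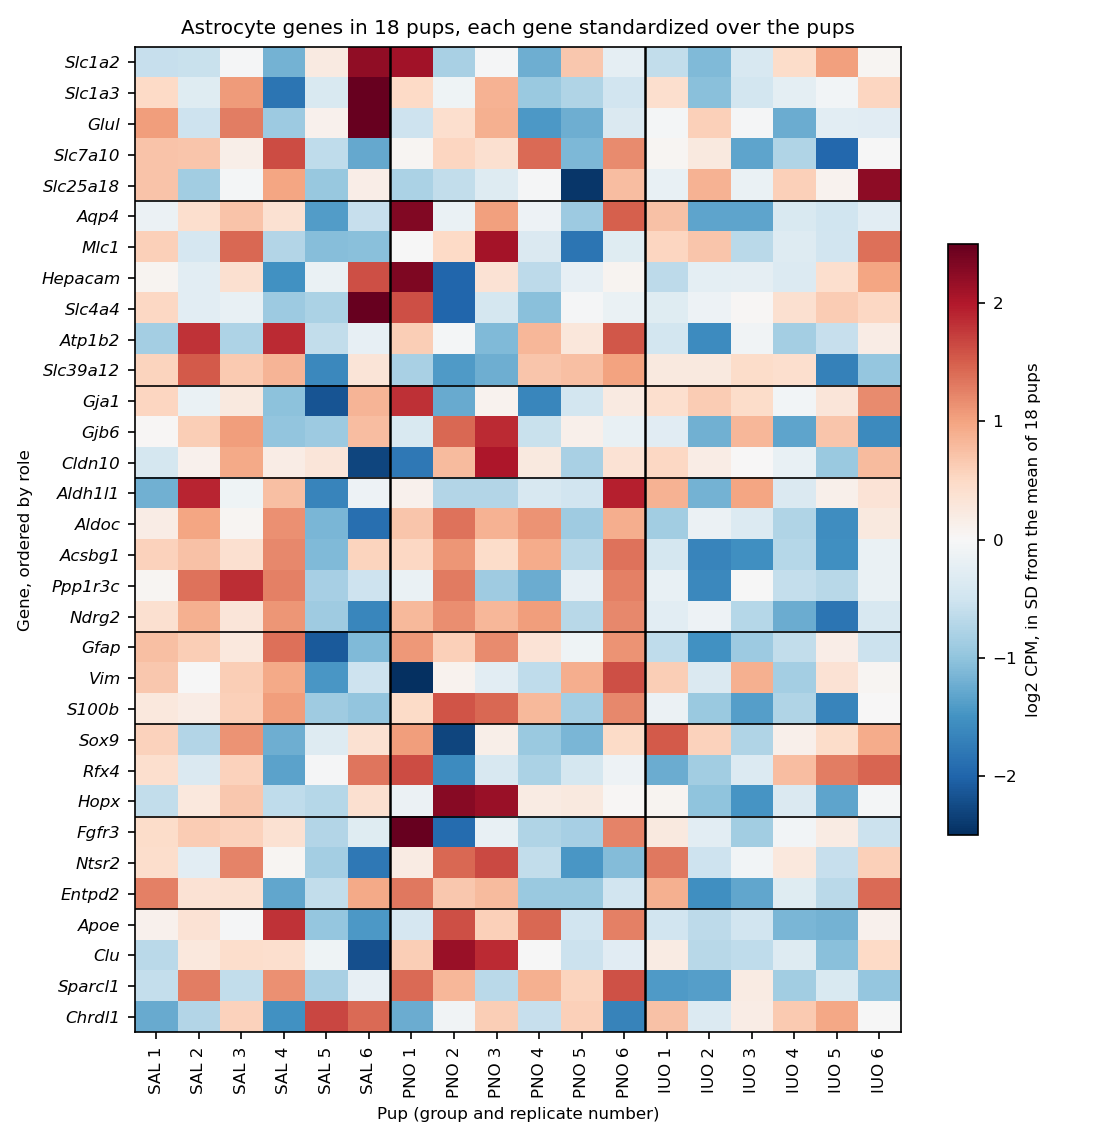
Level of each of the 32 astrocyte genes (rows, grouped by role between the horizontal lines) in each of the 18 pups (columns), as log2 CPM in SD from the gene's mean over all pups. Red is above and blue below that mean, colours stop at 2.5 SD, and the dark red cells of Slc1a2 and Slc4a4 are those of SAL replicate 6 and PNO replicate 1.

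The comparison of PNO with SAL asks what postnatal exposure alone did. No astrocyte gene passed an adjusted p of 0.05 in edgeR's quasi-likelihood test, as for all genes tested (0%), and none did in DESeq2 (0.00637% of all genes) or limma-voom (0%). At an unadjusted p under 0.05 there was 1 of 32, Hopx, against 4.5% of all genes, with 1 in DESeq2 (also Hopx, against 5.07%) and 0 in limma-voom (against 6.69%). The median log2 fold change of the 32 was 0.02 (21 higher and 11 lower in PNO) and that of all genes 0.00. In limma-voom it was -0.03, beside 0.00 for all genes.

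The comparison of IUO with SAL adds the exposure before birth to that after it. Again no astrocyte gene passed the adjusted threshold in edgeR (0% of all genes did), DESeq2 (0.312%) or limma-voom (0.274%). Acsbg1 was the only one of 32 with an unadjusted p under 0.05 in edgeR, against 6.88% of all genes, and there were 4 such genes in DESeq2, against 7.59% of all genes, and 9 in limma-voom, against 17.3%. Over 23 alternative fits an unadjusted p under 0.05 was reached by S100b in 12, Ppp1r3c in 10, Sparcl1 in 8, Ndrg2 in 7, Slc7a10 in 4, Apoe in 3, Gfap in 2 and Aldoc in 1. The median log2 fold change of the 32 was -0.14 (10 higher and 22 lower in IUO) beside -0.01 for all genes, and lay between -0.17 and -0.06 over the alternatives tried.

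The comparison of IUO with PNO sets pups with prenatal and postnatal exposure against those with postnatal exposure only. It held the most astrocyte genes at the unadjusted threshold, 10 of 32, beside 15.3% of all genes. Of these, 9 were lower in IUO, namely Hopx, S100b, Sparcl1, Ndrg2, Apoe, Aldoc, Acsbg1, Gfap and Aqp4, beside 9.14% of all genes. The remaining gene, Slc25a18, was higher in IUO, beside 6.14% of all genes. None passed an adjusted p of 0.05 in edgeR, with adjusted p between 0.102 and 0.303 for the 10, and 10 of the 15703 genes (0.0637%) did. DESeq2 called 5 astrocyte genes, S100b, Ndrg2, Acsbg1, Sparcl1 and Hopx, beside 2.78% of its 15699 genes. With sample quality weights limma-voom called 9, those 5 with Gfap, Slc7a10, Aldoc and Apoe, beside 12.9% of all genes. At the unadjusted p there were 11 of 32 in DESeq2, beside 16.4% of all genes, and 12 of 32 in limma-voom, beside 34% of all genes. All astrocyte genes called by either tool after adjustment were lower in IUO. With any 1 of the 12 PNO and IUO pups left out, the 10 less Aqp4 and Slc25a18 kept an unadjusted p under 0.05 in edgeR. With the myelin marker covariate described further on, 4 of the 10 kept it, beside 8.93% of all genes in that fit. The CPM of IUO and PNO pups overlapped for each of the 32 genes, as it did for all but 1.66% of all genes. The median log2 fold change of the 32 was -0.09 (11 higher and 21 lower) beside 0.00 for all genes.

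**Figure D2:**
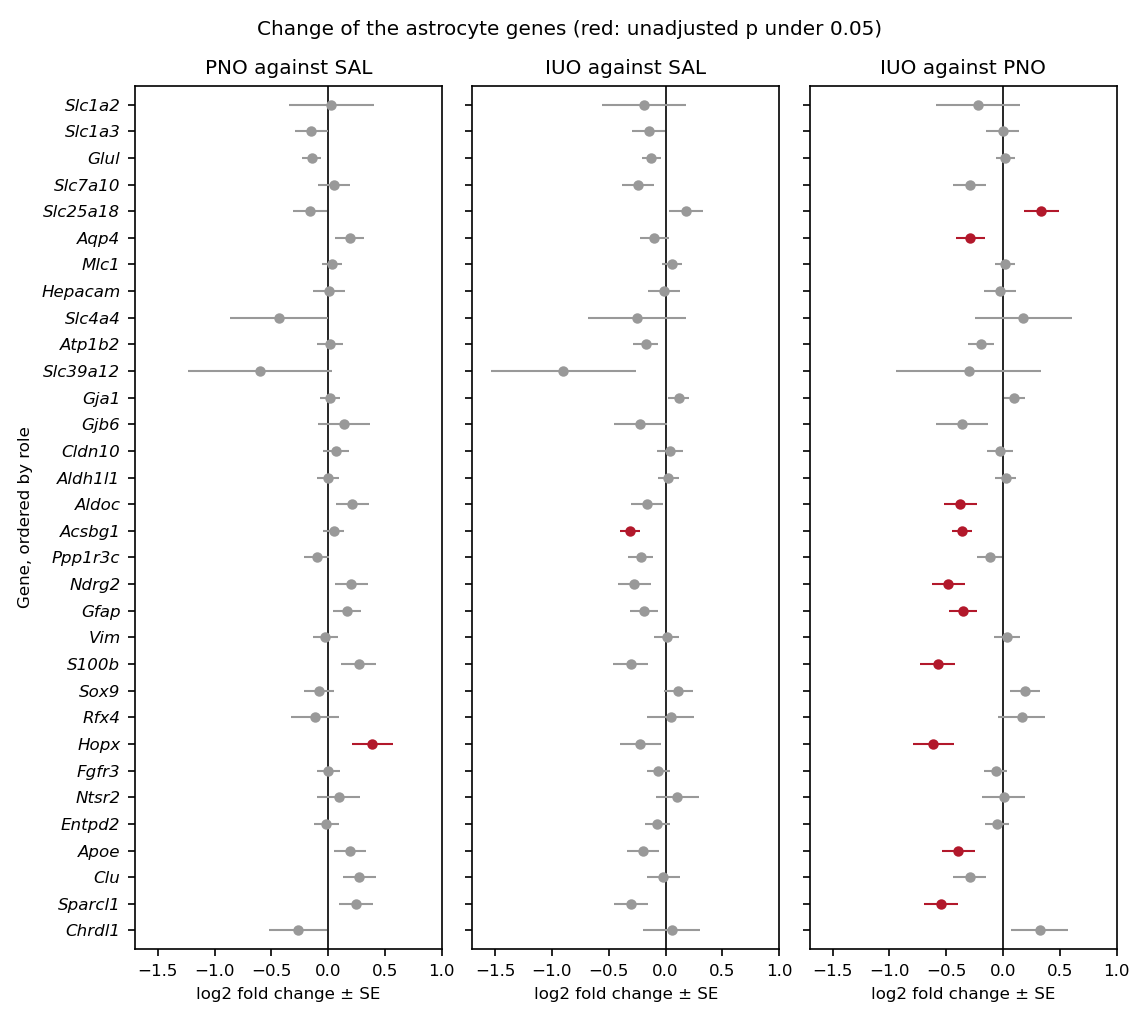
Log2 fold change (horizontal axis) with its standard error for each of the 32 astrocyte genes, by role, in each of the 3 comparisons, from edgeR. Red points have an unadjusted p under 0.05 (1, 1 and 10 genes), none passed after adjustment, and the red points of IUO against PNO lie left of 0 except that of Slc25a18.

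Among the 5 metabolic genes, 3 were lower in IUO than PNO at the unadjusted p, beside 9.14% of all genes. Acsbg1 (ENSRNOG00000011381) codes for an acyl-CoA synthetase that activates very long chain fatty acids. Its level lay from 154 to 219 CPM in SAL (median 199), from 164 to 224 in PNO (median 204) and from 141 to 178 in IUO (median 154). In IUO, 4 of 6 pups were below every PNO pup, and 3 below every SAL pup. The log2 fold change was -0.36 ± 0.09 (SE, unadjusted p = 0.000872, adjusted p = 0.102) for IUO against PNO and -0.31 ± 0.09 (SE, unadjusted p = 0.00278, adjusted p = 0.424) for IUO against SAL, whereas PNO and SAL differed by 0.05. Ndrg2 (ENSRNOG00000010389), a cytoplasmic protein typical of mature astrocytes, was at 331 to 608 CPM in SAL (median 515), 406 to 622 in PNO (median 587) and 316 to 463 in IUO (median 419.7). PNO replicate 5 was far below the other PNO pups, and 3 of 6 IUO pups were below it too. The difference of IUO from PNO was -0.48 ± 0.14 (SE, unadjusted p = 0.00352, adjusted p = 0.137). Ndrg2 differed by 0.205 between PNO and SAL and by -0.276 between IUO and SAL (edgeR, unadjusted p = 0.169 and 0.0698). Aldoc (ENSRNOG00000011452), a glycolytic aldolase, had levels from 348 to 647 CPM in SAL (median 524), from 427 to 676 in PNO (median 614) and from 372 to 537 in IUO (median 457). A single IUO pup fell outside the PNO range, and IUO and PNO differed by -0.38 ± 0.14 (SE, unadjusted p = 0.0174, adjusted p = 0.23). Aldoc differed by 0.213 between PNO and SAL and by -0.162 between IUO and SAL (edgeR, unadjusted p = 0.154 and 0.272).

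Aldh1l1 and Ppp1r3c, the other 2 metabolic genes, had no unadjusted p under 0.05 in any of the comparisons by the edgeR model above, though Ppp1r3c had in some of the alternative fits of IUO against SAL. Aldh1l1 (ENSRNOG00000047023), a folate enzyme widely used to mark astrocytes, was among the most even of the genes, from 18.99 to 27.4 CPM in SAL (median 22.3), from 20.9 to 27.5 in PNO (median 21.5) and from 19.9 to 24.9 in IUO (median 23.1). Its difference of IUO from PNO was 0.02 ± 0.10 (SE, unadjusted p = 0.808, adjusted p = 0.921), and that of IUO from SAL 0.02 ± 0.10 (SE, unadjusted p = 0.806, adjusted p = 0.996). Ppp1r3c, which brings a protein phosphatase to glycogen, was at 28.6 to 41.2 CPM in SAL (median 35.1), 27 to 38.3 in PNO (median 31.2) and 25.7 to 31.99 in IUO (median 30.3). IUO and SAL differed in Ppp1r3c by -0.22 ± 0.11 (SE, unadjusted p = 0.0539, adjusted p = 0.746).

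Of the filament and calcium-binding genes, Gfap and S100b were lower in IUO than PNO at the unadjusted p, and Vim was not. S100b (ENSRNOG00000001295), a calcium-binding protein, was measured from 264 to 437 CPM in SAL (median 357), from 273 to 498 in PNO (median 433) and from 225 to 339 in IUO (median 274). The IUO range covered the lowest PNO pup, replicate 5, and 3 of 6 IUO pups were below all PNO pups. The log2 fold change of S100b was -0.57 ± 0.15 (SE, unadjusted p = 0.00134, adjusted p = 0.111) between IUO and PNO, -0.31 ± 0.15 (SE, unadjusted p = 0.0571, adjusted p = 0.748) between IUO and SAL and 0.27 ± 0.15 (SE, unadjusted p = 0.0944, adjusted p = 0.912) between PNO and SAL. Gfap (ENSRNOG00000002919), the intermediate filament protein that gives astrocytes their marker stain, lay from 205 to 382 CPM in SAL (median 323), from 293 to 369 in PNO (median 347) and from 228 to 308 in IUO (median 267). Of the IUO pups, 5 of 6 were below every PNO pup, whereas the SAL pups spanned both groups. The difference between IUO and PNO was -0.35 ± 0.12 (SE, unadjusted p = 0.00924, adjusted p = 0.187), that between IUO and SAL -0.19 ± 0.12 (SE, unadjusted p = 0.135, adjusted p = 0.867) and that between PNO and SAL 0.17 ± 0.12 (SE, unadjusted p = 0.193, adjusted p = 0.912). Vim (ENSRNOG00000018087), the filament protein of immature and reactive astrocytes, was at 90.01 to 125 CPM in SAL (median 114), 77.1 to 136 in PNO (median 108) and 97.7 to 123 in IUO (median 113), with 0.03 ± 0.11 (SE, unadjusted p = 0.767, adjusted p = 0.901) for IUO against PNO.

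**Figure D3:**
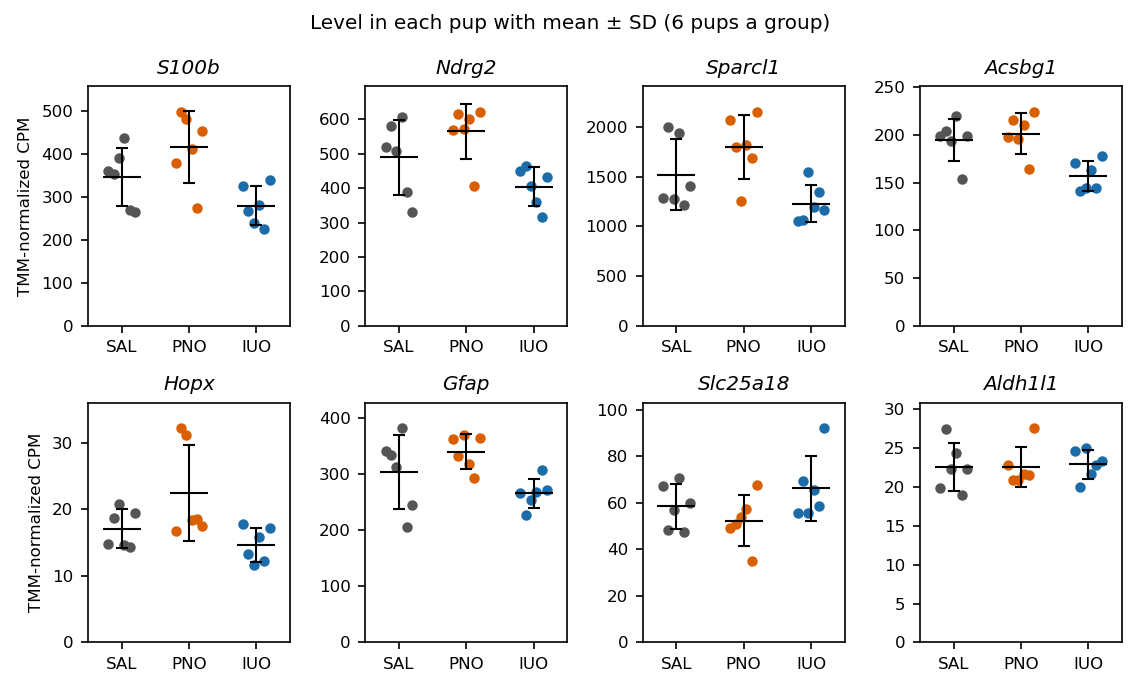
TMM-normalized CPM (vertical axis, from 0) of 8 astrocyte genes in each pup of SAL, PNO and IUO, with the mean and SD of the 6 pups as black bars. IUO pups tend to the lower end in the first 6 panels, every panel shows overlap of IUO with PNO, and Aldh1l1 has group means of 22.5, 22.5 and 22.9 CPM.

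Of the 4 matched genes for secreted and matrix proteins, Apoe and Sparcl1 were lower in IUO than PNO at the unadjusted p. Apoe (ENSRNOG00000018454) was found from 1218 to 2326 CPM in SAL (median 1631), from 1472 to 2240.0 in PNO (median 1956) and from 1280.0 to 1654 in IUO (median 1445). The 6 IUO pups lay close together, with 4 below every PNO pup, and the difference was -0.39 ± 0.14 (SE, unadjusted p = 0.0129, adjusted p = 0.207). Apoe differed by 0.19 between PNO and SAL and by -0.202 between IUO and SAL (edgeR, unadjusted p = 0.198 and 0.171). Sparcl1 (ENSRNOG00000015093), or hevin, is secreted to promote excitatory synapses, and its level lay from 1216 to 2003 CPM in SAL (median 1342), from 1256 to 2153 in PNO (median 1811) and from 1052 to 1547 in IUO (median 1185). PNO replicate 3 was within the IUO range, and 4 IUO pups were below it and 4 below every SAL pup. Sparcl1 differed by -0.55 ± 0.15 (SE, unadjusted p = 0.00192, adjusted p = 0.122) between IUO and PNO and by -0.30 ± 0.15 (SE, unadjusted p = 0.0583, adjusted p = 0.748) between IUO and SAL. Between PNO and SAL it differed by 0.243 (edgeR, unadjusted p = 0.124). Clu, an extracellular chaperone, was at 264 to 443 CPM in SAL (median 412), 366 to 618 in PNO (median 431) and 331 to 448 in IUO (median 369.9). PNO replicates 2 and 3 were the highest in Clu, and IUO and PNO differed by -0.29 ± 0.14 (SE, unadjusted p = 0.0558, adjusted p = 0.341). Chrdl1, an antagonist of bone morphogenetic proteins that acts on synaptic AMPA receptors, lay the other way, from 7.45 to 21.1 CPM in SAL (median 12.2), from 7.08 to 14.9 in PNO (median 10.97) and from 10.9 to 16.7 in IUO (median 14.03), with 0.32 ± 0.25 (SE, unadjusted p = 0.222, adjusted p = 0.563) for IUO against PNO. Gpc5, a cell surface proteoglycan, was not matched.

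Among the 3 genes for nuclear regulators, Hopx had the largest difference of all 32 genes between IUO and PNO and the only one of at least 1.5-fold there. Hopx (ENSRNOG00000024689), a small homeodomain protein that does not bind DNA itself, was at 14.4 to 20.8 CPM in SAL (median 16.7), 16.8 to 32.2 in PNO (median 18.5) and 11.7 to 17.8 in IUO (median 14.6). PNO replicates 2 and 3 stood well above the other 4 PNO pups, which were within the SAL range, and 4 of 6 IUO pups were below every PNO pup. The log2 fold change was -0.61 ± 0.18 (SE, unadjusted p = 0.00309, adjusted p = 0.132) for IUO against PNO and 0.39 ± 0.18 (SE, unadjusted p = 0.0435, adjusted p = 0.912) for PNO against SAL. The latter no longer had an unadjusted p under 0.05 without SAL replicate 1, 4 or 5 or PNO replicate 2 or 3. Nor had it in limma-voom, without normalization factors, with the 12 pups compared only, with the replicate block or with either covariate described further on. Between IUO and SAL, Hopx differed by -0.225 (edgeR, unadjusted p = 0.226). Sox9 (ENSRNOG00000002607), the factor that specifies the glial fate, lay from 8.18 to 11.8 CPM in SAL (median 9.93), from 6.91 to 11.6 in PNO (median 9.33) and from 8.79 to 12.6 in IUO (median 10.7), and Rfx4, which acts in neural progenitors and astrocytes, from 3.30 to 6.30 CPM in SAL (median 4.79), from 3.11 to 6.77 in PNO (median 4.12) and from 3.38 to 6.48 in IUO (median 4.86). For IUO against PNO the differences were 0.19 ± 0.13 (SE, unadjusted p = 0.15, adjusted p = 0.49) for Sox9 and 0.16 ± 0.21 (SE, unadjusted p = 0.444, adjusted p = 0.725) for Rfx4, so neither shared the direction of Hopx.

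The 5 matched genes of glutamate and amino acid handling gave mixed differences. Slc25a18 (ENSRNOG00000042731), a mitochondrial glutamate carrier, was the only gene of the 32 higher in IUO than PNO at the unadjusted p in edgeR with all pups and no covariate. Its levels lay from 47.4 to 70.95 CPM in SAL (median 58.5), from 34.8 to 67.8 in PNO (median 52.5) and from 55.8 to 92.2 in IUO (median 62.2). IUO replicate 6 was the highest and PNO replicate 5 the lowest, and 2 IUO pups were above every PNO pup. The difference was 0.34 ± 0.15 (SE, unadjusted p = 0.039, adjusted p = 0.303) between IUO and PNO and 0.18 ± 0.15 (SE, unadjusted p = 0.251, adjusted p = 0.929) between IUO and SAL. The unadjusted p of Slc25a18 between IUO and PNO was no longer under 0.05 without PNO replicate 1, 2 or 5 or IUO replicate 2, 4 or 6. The same held in limma-voom (unadjusted p = 0.0768), with the 12 pups compared only, and without both SAL replicate 6 and PNO replicate 1. Slc7a10 (ENSRNOG00000010938), a transporter of small neutral amino acids such as D-serine, lay from 34.6 to 61.1 CPM in SAL (median 48.4), from 35.8 to 58.7 in PNO (median 48.8) and from 30.4 to 46.7 in IUO (median 41.4), with -0.29 ± 0.14 (SE, unadjusted p = 0.0564, adjusted p = 0.342) between IUO and PNO. Glul, the enzyme that makes glutamine from glutamate, was at 787 to 1116 CPM in SAL (median 917), 745 to 947 in PNO (median 826) and 761 to 918 in IUO (median 850.2), and its differences were -0.15 for PNO against SAL (unadjusted p = 0.101) and 0.02 for IUO against PNO.

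The glutamate transporters had no unadjusted p under 0.05 in any comparison in edgeR with all pups and no covariate. Slc1a3 (ENSRNOG00000016163), the transporter known as GLAST, lay from 404 to 896 CPM in SAL (median 567), from 473 to 647 in PNO (median 529) and from 464 to 611 in IUO (median 541), and IUO and PNO differed by -0.002 ± 0.14 (SE, unadjusted p = 0.99, adjusted p = 0.997). Slc1a2 (ENSRNOG00000005479), known as GLT-1, was at 23.9 to 103 CPM in SAL (median 35.2), 23.4 to 98.1 in PNO (median 37.7) and 24.6 to 61.7 in IUO (median 36.9). Its highest values were those of SAL replicate 6 and PNO replicate 1, at 103 and 98.1 CPM, and the next was IUO replicate 5 at 61.7. IUO and PNO differed in Slc1a2 by -0.22 ± 0.37 (SE, unadjusted p = 0.561, adjusted p = 0.796), by 0.15 with SAL replicate 6 and PNO replicate 1 left out, and by -0.76 with the myelin covariate described further on (unadjusted p = 0.133). Between PNO and SAL, Slc1a2 differed by 0.03 with all pups, -0.34 without PNO replicate 1, 0.45 without SAL replicate 6 and 0.082 without both. Between IUO and SAL it differed by -0.19 with all pups and 0.23 without SAL replicate 6. All of these differences from SAL had an unadjusted p of at least 0.174 in edgeR. The symbol Prodh, for the proline dehydrogenase of mitochondria, has Prodh1 as a synonym in RefSeq. The gene listed as Prodh1 (ENSRNOG00000000281), which is not counted among the 32, had 38.4 ± 8.92 CPM in SAL, 47.6 ± 15.5 in PNO and 30.7 ± 5.45 in IUO (SD, n = 6). Its log2 fold change between IUO and PNO was -0.631 ± 0.20 (SE, unadjusted p = 0.00602, adjusted p = 0.166, edgeR). The largest among the 32, that of Hopx, was -0.615.

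Of the 6 genes for water, ion and endfoot proteins, Aqp4 was lower in IUO than PNO at the unadjusted p. Aqp4 (ENSRNOG00000016043), the water channel of astrocyte endfeet, lay from 391 to 560.1 CPM in SAL (median 507), from 424 to 737 in PNO (median 538) and from 396 to 563 in IUO (median 460.3). PNO replicates 1 and 6 were the highest of the 18 pups, and 2 IUO pups were below every PNO pup. The difference was -0.29 ± 0.13 (SE, unadjusted p = 0.0368, adjusted p = 0.299) between IUO and PNO, -0.10 ± 0.13 (SE, unadjusted p = 0.447, adjusted p = 0.982) between IUO and SAL and 0.19 ± 0.13 (SE, unadjusted p = 0.156, adjusted p = 0.912) between PNO and SAL. The unadjusted p of Aqp4 between IUO and PNO was no longer under 0.05 without PNO replicate 1, 3 or 6 or IUO replicate 2, 3, 4 or 5. Mlc1 and Hepacam, partner membrane proteins at astrocyte contacts, lay from 219 to 282 CPM in SAL (median 229.9), from 203 to 301 in PNO (median 240.0) and from 228 to 279.8 in IUO (median 247) for Mlc1, and from 9.66 to 15.99 CPM in SAL (median 12.2), from 8.96 to 17.9 in PNO (median 12.2) and from 11.1 to 14.4 in IUO (median 11.9) for Hepacam. Their differences of IUO from PNO were 0.02 and -0.03 on the log2 scale. Atp1b2, a sodium pump subunit that also serves adhesion, was at 387 to 573 CPM in SAL (median 413), 374 to 546 in PNO (median 466) and 349 to 449 in IUO (median 405), with -0.20 ± 0.11 (SE, unadjusted p = 0.101, adjusted p = 0.419).

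The remaining transporters were the most variable of the 32, with a ratio of the highest to the lowest pup of 10.1 for Slc4a4 and 20.0 for Slc39a12. Slc4a4 (ENSRNOG00000003134), a sodium bicarbonate cotransporter, lay from 20.7 to 120.4 CPM in SAL (median 29.4), from 11.97 to 75.4 in PNO (median 28.4) and from 28.3 to 45.8 in IUO (median 37.01). SAL replicate 6 and PNO replicate 1 held 120.4 and 75.4 CPM, against at most 45.8 in the other pups, and the difference of IUO from PNO was 0.18 ± 0.43 (SE, unadjusted p = 0.68, adjusted p = 0.859). With both of these pups left out, Slc4a4 was higher in IUO than PNO at the unadjusted p (0.62 ± 0.24, SE, unadjusted p = 0.0191, adjusted p = 0.122), and in limma-voom with all pups the difference was 0.64 (adjusted p = 0.0983). Between PNO and SAL it was -0.43 ± 0.43 (SE, unadjusted p = 0.327) with all pups and -0.266 ± 0.247 (SE, unadjusted p = 0.297) with both left out. Without PNO replicate 1 alone it was -0.88 ± 0.40 (SE, unadjusted p = 0.0424, adjusted p = 0.536). Without SAL replicate 6 alone it was 0.17, and of these fits its sign turned only in that one. Between IUO and SAL it was -0.25 with all pups and 0.35 without SAL replicate 6 (unadjusted p = 0.562 and 0.311). Slc39a12 (ENSRNOG00000025639), a zinc transporter, reached the lowest expected count of the 32 genes, with 25 to 491 per pup, and ran from 1.09 to 20.5 CPM in SAL (median 8.68), from 1.32 to 12.6 in PNO (median 5.87) and from 1.02 to 7.55 in IUO (median 6.16). Low and high pups occurred in each group, and Slc39a12 differed by -0.60 ± 0.63 (SE, unadjusted p = 0.357, adjusted p = 0.914) between PNO and SAL and by -0.90 ± 0.64 (SE, unadjusted p = 0.175, adjusted p = 0.896) between IUO and SAL, at least 1.5-fold in both without passing at the unadjusted p.

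The 3 junction genes and 3 receptor and ectoenzyme genes had no unadjusted p under 0.05 in any comparison in edgeR with all pups and no covariate. Gja1 and Gjb6, the connexins that couple astrocytes, lay from 206 to 288 CPM in SAL (median 263), from 219 to 320.3 in PNO (median 257) and from 259.8 to 298 in IUO (median 275) for Gja1, and from 11.1 to 20.2 CPM in SAL (median 16.4), from 12.6 to 25.8 in PNO (median 14.7) and from 9.29 to 19.04 in IUO (median 12) for Gjb6. Between IUO and PNO they differed by 0.10 ± 0.09 (SE, unadjusted p = 0.289, adjusted p = 0.619) and -0.36 ± 0.23 (SE, unadjusted p = 0.132, adjusted p = 0.465). Cldn10, of the claudin family of tight junction proteins, was at 15.2 to 23.3 CPM in SAL (median 20.9), 16.3 to 26.8 in PNO (median 21.4) and 18.2 to 22.8 in IUO (median 20.8). Fgfr3, a receptor for fibroblast growth factors, lay from 49.05 to 57.4 CPM in SAL (median 55.98), from 42.6 to 73.3 in PNO (median 50.5) and from 48.2 to 54.8 in IUO (median 52.3), with PNO replicate 1 highest and PNO replicate 2 lowest. Ntsr2, a neurotensin receptor, was at 18.96 to 38.1 CPM in SAL (median 27.9), 20.4 to 41.95 in PNO (median 27.4) and 25.1 to 38.7 in IUO (median 29.3), and Entpd2, an ectoenzyme that splits extracellular ATP, at 21.1 to 28.9 CPM in SAL (median 25.9), 22.1 to 29.1 in PNO (median 25.1) and 20.4 to 29.5 in IUO (median 23.3). For Cldn10, Fgfr3, Ntsr2 and Entpd2 the log2 fold changes between IUO and PNO were -0.03, -0.07, 0.01 and -0.06.

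The astrocyte genes did not vary as 1 unit across the 18 pups. Over all 496 pairs of the 32 genes the median Pearson r of log2 CPM was 0.13, between -0.77 and 0.95. S100b, Ndrg2, Aldoc, Apoe, Acsbg1 and Slc7a10 varied together (15 pairs, median r 0.86, lowest 0.68), and so did Slc1a2, Slc4a4, Hepacam and Rfx4 (6 pairs, median r 0.81, lowest 0.79). Between both sets the median r of 24 pairs was -0.48. These sets were chosen after their values were seen, the pups share library preparation and normalization, and the coefficients are a description. The 10 other genes that most resembled the mean of the standardized 32 genes were Car2 (r = 0.90), Plpp3 (0.87), Ctdsp1 (0.87), Mmd2 (0.865), Cpt2 (0.86), Acadm (0.85), Suclg2 (0.85), Asrgl1 (0.85), Ccdc8 (0.84) and AABR07011996.1 (0.84).

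Markers of myelin moved with several of the astrocyte genes. The 12 markers of mature oligodendrocytes and myelin, among them Mal, Ermn, Mobp and Mog, were all lower in IUO than PNO at the unadjusted p (median log2 fold change -1.37), beside 9.14% of all genes, with the smallest adjusted p at 0.0725 in edgeR. After adjustment 11 passed in DESeq2, beside 2.78% of all genes, and 12 in limma-voom, beside 12.9%. Their summed level was between 1809 and 9627 CPM in SAL (median 6568), 3051 and 15510 in PNO (median 10700.0) and 2295 and 5853 in IUO (median 3117), and no marker of this list was at 0 in all pups. Across the 18 pups, S100b followed the mean log2 CPM of these markers with Pearson r 0.81 and Spearman rho 0.84, and with r 0.86 over 16 pups without the 2 farthest from the median of the markers. Ndrg2 did so with r 0.89 and rho 0.85, and 0.90 over those 16. Within SAL, PNO and IUO the r of S100b was 0.88, 0.585 and 0.49, and that of Ndrg2 0.94, 0.72 and 0.79. The markers and these genes were both lower in IUO than PNO, so an r over all pups holds the group difference too. Within groups of 6 pups the 9 genes lower in IUO did not all run with the markers: r was above 0 for 8 of 9 in SAL and in PNO (Hopx was at -0.06 and -0.03), and for 7 of 9 in IUO, where Gfap was at -0.66 and Sparcl1 at -0.77.

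With the myelin markers as a covariate, 5 of 32 astrocyte genes had an unadjusted p under 0.05 between IUO and PNO, beside 8.93% of all genes in that fit, of which Hopx, Sparcl1, Acsbg1 and Slc25a18 were among the 10 above. The log2 fold change was then -0.58 for Hopx, -0.48 for Sparcl1, -0.25 for Acsbg1 and 0.48 for Slc25a18. It was -0.22 for S100b, -0.08 for Ndrg2, -0.02 for Aldoc, -0.17 for Apoe, -0.15 for Gfap and 0.025 for Aqp4, with unadjusted p between 0.174 and 0.885. The fifth was Sox9, which had no such p without the covariate. No astrocyte gene passed after adjustment in this fit, beside 0.0127% of all genes. The markers themselves differed between IUO and PNO, so this fit cannot separate them from the group. The part of oligodendrocyte RNA in the differences was not tested.

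**Figure D4:**
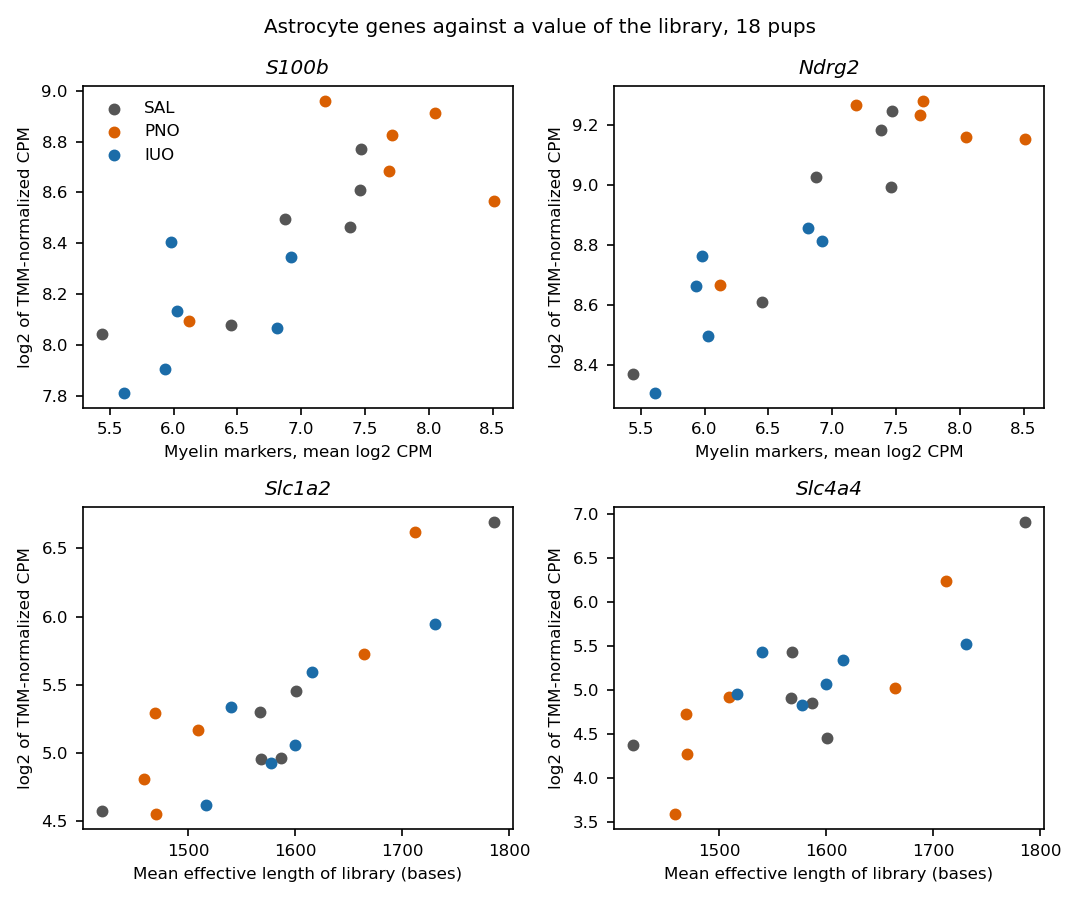
Log2 CPM (vertical axis) of S100b and Ndrg2 against the mean log2 CPM of 12 myelin markers, and of Slc1a2 and Slc4a4 against the mean effective transcript length of the library in bases, 1 point per pup, coloured by group. S100b and Ndrg2 are higher in pups with more myelin marker RNA, and Slc1a2 and Slc4a4 are highest in the pup with the largest mean length, SAL replicate 6.

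Both sets moved with a property of the libraries, in opposite directions. The mean effective length of a library, the length of the transcripts weighted by their TPM, lay between 1419.7 and 1785.7 bases over the 18 pups. Its median was 1577 bases in SAL, 1489 in PNO and 1589 in IUO, with ranges that overlapped. Slc1a2 followed it with r 0.87 and rho 0.80, and with r 0.79 without the 2 pups farthest from the median length, and the r within SAL, PNO and IUO was 0.94, 0.91 and 0.84. Slc4a4 did so with r 0.81 and rho 0.725, and 0.71 over 16 pups. Apoe, Cldn10 and Slc7a10 ran the other way, with r -0.83, -0.81 and -0.80, as did Aldoc (-0.76), Ndrg2 (-0.73), S100b (-0.70) and, less closely, Acsbg1 (-0.39). Within SAL, PNO and IUO the r of Ndrg2 with this length was -0.854, -0.607 and -0.94. Myelin markers and mean length were themselves correlated (r = -0.52). SAL replicate 6 and PNO replicate 1 had mean lengths of 1785.7 and 1711.8 bases, and IUO replicate 5 had 1730.4. With this length as a covariate, chosen after the data were seen, S100b had an adjusted p of 0.0425 in edgeR between IUO and PNO (log2 fold change -0.46), 1 of 32 beside 0.962% of all genes in that fit, and 12 astrocyte genes an unadjusted p under 0.05, beside 17.6% of all genes, Slc1a2 (-0.41) and Slc7a10 being added to the 10. With SAL replicate 6 and PNO replicate 1 left out there were also 12, beside 26.6% of all genes, of which 8 were among the 10, and none passed after adjustment, beside 1.41% of all genes. The part of library composition in the differences was not tested further.

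Other genes of astrocytes were read in 3 further lists, beside the 15.3% of all genes with an unadjusted p under 0.05 between IUO and PNO. Of 44 further transport and metabolism genes tested, 7 had an unadjusted p under 0.05 between IUO and PNO (2 higher and 5 lower in IUO, median log2 fold change -0.02). Of 15 genes for secreted synapse factors and phagocytic receptors, 6 did (3 higher and 3 lower, median 0.00). Tnc, an extracellular matrix glycoprotein, was at 71.9 ± 19.9 CPM in SAL, 48.8 ± 9.04 in PNO and 73.7 ± 12 in IUO (SD, n = 6), a log2 fold change of 0.60 ± 0.165 between IUO and PNO (SE, adjusted p = 0.122, edgeR). Wif1, a secreted inhibitor of Wnt signalling, was at 10.2 ± 6.77, 16.2 ± 7.58 and 8.72 ± 0.78 CPM in the same order, a change of -0.89 ± 0.34 (adjusted p = 0.229). Of 28 genes of reactive astrocytes tested, 4 had an unadjusted p under 0.05 between IUO and PNO (1 higher and 3 lower, median 0.02), among them Aspg at 1.26 ± 0.32 CPM in PNO and 0.829 ± 0.214 in IUO (-0.60 ± 0.26, adjusted p = 0.287). In edgeR no gene of these 3 lists passed the adjusted threshold in any comparison. Between IUO and PNO, DESeq2 called 2 of the 44, 2 of the 15 and 0 of the 28 genes, beside 2.78% of all genes, and limma-voom 7, 7 and 2, beside 12.9%, Tnc among the calls of both tools and Wif1 among those of limma-voom.

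Markers of other cells were read beside the astrocyte genes. Between IUO and PNO, 4 of 8 oligodendrocyte precursor markers had an unadjusted p under 0.05, beside 15.3% of all genes, all lower in IUO, and their summed level was 510.1 to 945 CPM in PNO and 436 to 649 in IUO. The count was 1 of 12 for neuron markers (median log2 fold change 0.08), 1 of 11 for microglia markers (median -0.02) and 0 of 9 for endothelial and mural markers (median -0.095), and the 1 microglial gene was Tmem119 (-1.32, adjusted p = 0.0524). Meningeal fibroblast markers gave 1 of 7 and ependymal markers 1 of 5. Choroid plexus markers (0 of 8, median -1.04) and striatal neuron markers (0 of 11, median 0.85) varied widely between pups, the former from 8.52 to 980.5 CPM in PNO and from 6.70 to 262 in IUO, the latter from 263 to 1457 in PNO and from 466 to 2102 in IUO. Their part in the differences of the astrocyte genes was not tested.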

How the data were processed

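RNA from the PFC of 18 pups (6 SAL, 6 PNO, 6 IUO, as the sample titles give) was sequenced by the study as single reads from a TruSeq RNA library kit, which does not mark strand, so reads of overlapping antisense genes could not be told apart. The tables the authors deposited, 1 for each pup, hold an unnormalized expected count per gene (32623 genes) and TPM values scaled to gene length and to the same total in every pup. The quantification tool, annotation and genome build of the tables are not given in the sources used here. Total expected counts per pup were 18381819 to 26084780, and n = 6 per group limits the precision of each difference.

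Members were matched by symbol. Expected counts were rounded and tested in edgeR 4.0.16 (R 4.3.3) with TMM normalization, filterByExpr by group, and glmQLFit and glmQLFTest in 1 model over 3 groups (15 residual degrees of freedom, two-sided). The Benjamini-Hochberg adjustment covered 15703 genes, with a threshold of 0.05. The SE of an edgeR log2 fold change was taken as its absolute value over the square root of the quasi-likelihood F statistic. Log2 CPM used a prior count of 2, and TPM entered no test. Alternatives were RLE size factors, no normalization factors, DESeq2 1.42.0, limma 3.58.1 (voom with quality weights per sample), no filter and a stricter filter on low counts, the 12 pups compared only, a replicate block, a myelin marker covariate, a change of at least 1.5-fold, each pup left out in turn, and, chosen after the data were seen, a mean effective length covariate and a fit without SAL replicate 6 and PNO replicate 1. The 3 tests were also tested on simulated data for IUO against PNO. Levels by group and the statistics of IUO against PNO were given for members with an unadjusted p under 0.05 in any comparison and for Gfap, Aqp4, Slc1a2, Slc1a3, Aldh1l1 and S100b. Differences from SAL were given for some of these genes, not always with their SE or adjusted p. From each other list at most 4 genes were named, by smallest p, among those at an unadjusted p below 0.05 whose change was 1.5-fold or more. The 10 genes most like the mean of the members were ranked by Pearson r. Members, lists and rules were chosen with earlier results of these data known. Promoter windows came from RefSeq (GRCr8). Python 3.11.15, numpy 2.4.6, pandas 2.3.3 and matplotlib 3.10.9 made the tables and plots.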

Additional observations from a re-analysis of the deposited data

Results flagged for a closer look

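In 4 of the 96 sets of 6 pups examined (32 genes in 3 groups), 1 pup lay far from the other 5 of its group. Chance alone gives this in about 1 in 20 sets. PNO replicate 5 was low in Ndrg2 (log2 CPM 8.67, the nearest pup at 9.15) and in Aldoc (8.74, nearest 9.20). SAL replicate 5 was low in Acsbg1 (7.27, nearest 7.6). PNO replicate 6 was high in Aldh1l1 (4.79, nearest 4.52). Without PNO replicate 5, S100b and Acsbg1 passed an adjusted p of 0.05 in edgeR between IUO and PNO, beside 95 of 15800 genes (0.601%).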

How the results depend on the processing

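Over the alternatives tried, the median log2 fold change of the astrocyte genes lay from -0.13 to -0.03 for IUO against PNO and from -0.17 to -0.06 for IUO against SAL, and changed sign for PNO against SAL (-0.03 to 0.04). The counts at an adjusted p of 0.05 stayed at 0 for both comparisons with SAL. For IUO against PNO this count was 5 in DESeq2, 9 in limma-voom, 1 with the mean effective length covariate and 0 to 2 with a pup left out, the highest without PNO replicate 5. At the unadjusted p the count for IUO against PNO was 5 with the myelin marker covariate, 1 with a change of at least 1.5-fold also required, 12 in limma-voom beside 34% of all genes, and 8 to 11 with a pup left out, beside 11.4% to 21.4% of all genes. For IUO against SAL it was 3 without normalization factors, 4 in DESeq2, 9 in limma-voom, 4 without a filter, 2 with the stricter filter, 3 with the 12 pups compared, 3 with the replicate block, 5 with the length covariate, 6 without SAL replicate 6 and PNO replicate 1, 0 with 1.5-fold required, and 1 to 6 with a pup left out, the highest without SAL replicate 5, while the share of all genes at that threshold ran from 5.14% to 17.3%. For PNO against SAL it was 0 in limma-voom, with the 12 pups, the replicate block, either covariate or 1.5-fold required, and 0 to 4 with a pup left out, the highest without SAL replicate 4 or PNO replicate 5, while the share of all genes ran from 2.52% to 8.99%. The causes were not tested.

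Of single genes between IUO and PNO, Aqp4 turned to 0.025 with the myelin covariate. Slc1a2 turned to 0.268 in limma-voom and 0.146 without SAL replicate 6 and PNO replicate 1, and went to -0.758 with the myelin covariate and -0.411 with the length covariate. Slc1a3 went to -0.132 with the myelin covariate and -0.074 with the length covariate, and turned to 0.037 without normalization factors (where the median of all genes moved to 0.039), 0.054 in limma-voom and 0.031 without SAL replicate 6 and PNO replicate 1, and lay between -0.041 and 0.053 with a pup left out, above 0 without PNO replicate 1 or 3 or IUO replicate 2, 3 or 4. With a pup left out, Slc1a2 lay between -0.394 and 0.142 and Aldh1l1 between -0.002 (without IUO replicate 3) and 0.089.

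No source used here says that a replicate number pairs pups, and in no comparison did every same-numbered pair correlate above 0.1. The deviations of same-numbered pups had r from -0.06 to 0.49 between PNO and SAL (4 of 6 above 0.1, 4 best with their own number), -0.13 to 0.24 between IUO and SAL (1 and 1) and -0.30 to 0.44 between IUO and PNO (3 and 2), a hint from the data for some pairs. With the replicate block the unadjusted count for IUO against PNO was 11, beside 16.5% of all genes, with all 10 genes of the report among them. For PNO against SAL this count was 0, beside 4.62% of all genes, so Hopx was lost. For IUO against SAL it was 3, beside 7.44% of all genes.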
